A study of Rattus norvegicus with 2 samples.

Results

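Nitric oxide and cyclic GMP signalling was followed through 10 genes: the synthases Nos1, Nos2 and Nos3, the cyclase subunits Gucy1a3 and Gucy1b3, the kinases Prkg1 and Prkg2, the phosphodiesterase Pde5a and the methylarginine hydrolases Ddah1 and Ddah2. They were picked by name, as every non-control probe carrying one of these names on the array, which gave 14 probes for the 10 genes out of 17711 genes named on the array. The series concerns hypertension that is programmed before birth. RNA came from the paraventricular nucleus (PVN) of male Sprague Dawley rats aged 12 weeks. The mothers of the control group had been given vehicle, and those of the other group dexamethasone, a synthetic glucocorticoid, at 200 µg/kg in the last trimester of pregnancy. Each group had 1 array, so array and group cannot be told apart, and the labels do not say if 1 rat or pooled rats supplied the RNA.

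Nitric oxide is a gas made from arginine by the synthases. It binds soluble guanylyl cyclase, a dimer of an alpha and a beta subunit, which then makes cyclic GMP. Cyclic GMP activates the cyclic GMP-dependent kinases and is broken down by phosphodiesterases. The DDAH enzymes degrade asymmetric dimethylarginine, a natural inhibitor of the synthases. In the PVN, nitric oxide is known as a brake on sympathetic outflow and on vasopressin and oxytocin neurons, and neuronal synthase is enriched there.

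Of the 14 probes, each 60 bases long, 8 are printed so that the piece of each mRNA behind a value can be traced. All 8 have at least 1 reading frame free of stop codons. They are given 5′ to 3′ as in the deposited files, in lower case, and capitals mark the longest run shared by probes of different genes among all 14, a run of 9 bases between a Nos1 and the Prkg2 probe.
Nos1, probe 1: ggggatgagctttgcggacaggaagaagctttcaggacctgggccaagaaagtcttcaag
Nos1, probe 2: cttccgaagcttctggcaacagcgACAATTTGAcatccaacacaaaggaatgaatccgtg
Nos3: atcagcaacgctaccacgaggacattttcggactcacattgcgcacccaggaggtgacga
Gucy1b3, probe 1: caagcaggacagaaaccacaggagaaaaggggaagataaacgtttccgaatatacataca
Prkg1: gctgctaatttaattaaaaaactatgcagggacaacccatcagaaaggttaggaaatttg
Prkg2: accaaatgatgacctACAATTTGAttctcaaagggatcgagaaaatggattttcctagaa
Pde5a: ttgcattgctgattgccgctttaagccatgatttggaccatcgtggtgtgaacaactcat
Ddah1, probe 1: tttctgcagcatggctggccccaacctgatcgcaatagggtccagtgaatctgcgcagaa
On the rn4 assembly these lie, in the same order, at chr12:39815023-39815082 and chr12:39810923-39810982 (minus strand), chr4:6159286-6159345 (minus), chr2:173685920-173685979 (minus), chr1:234423423-234423482 (minus), chr14:11992790-11992849 (plus), chr2:219515832-219515891 (plus) and chr2:244032795-244032854 (plus). The files tie every member probe to an mRNA record of its gene, and exon boundaries on rn4 were not analysed here.

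Of 30367 probes, 79.5% (control) and 78.2% (dexamethasone) were well above background, the scanner software's own mark. Differences below are dexamethasone minus control in log2 signal, after the 75th percentile of each array had been subtracted. Signals are the scanner software's processed values before that step. Single arrays allow neither a test nor an estimate of the spread between animals. Where a probe was spotted 10 times, the SD given is over its spots. For a probe with a single spot, the SD given is the median spot SD of repeated probes within 0.5 log2 of its signal, called the like-signal SD. Both describe the arrays and not the animals. The scanner software's error model puts a wider error on each member difference, from 0.20 to 0.28 log2 for probes measured on both arrays. Of 7 listed PVN marker genes, Avp, Oxt, Crh, Trh, Pou3f2 and Sim1 were well above background on both arrays. Otp was so on the dexamethasone array alone (signal 1.92 control, 8.26 dexamethasone). Sim1 was dim, at 14.1 (control) and 12.0 (dexamethasone). These marks show detection only, and do not establish how much of the sampled tissue was PVN.

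None of the 9 genes measured on both arrays differed 2-fold. The inhibitor-degrading enzyme Ddah1 and the cyclase alpha subunit Gucy1a3 were the only ones past 1.5-fold, both lower in the dexamethasone array. Pde5a was the highest, just under 1.5-fold, followed by Nos1, whose probes gave 1.45-fold and 1.24-fold. Over all 14256 measured genes 5.75% differed at least 2-fold and 14.8% at least 1.5-fold (7.28% higher, 7.57% lower). The members' shares were 0 of 9 and 2 of 9. Of the 9, 4 were above and 5 below equality, with a median of -0.26, against 0.01 over all genes. With no filter on dim probes, which adds Prkg1, 5 of 10 were above and 5 below, with a median of -0.06 against 0.03.

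**Figure D1:**
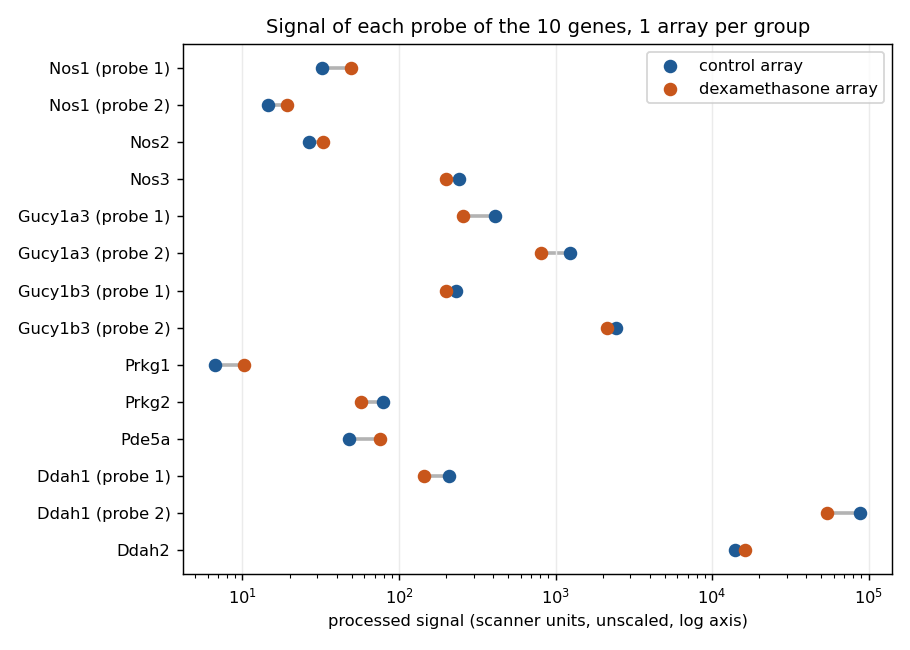
Processed signal (scanner units, log axis) of each of the 14 probes on the control and dexamethasone arrays, joined by a grey bar. Both Ddah1 and both Gucy1a3 probes lie lower on the dexamethasone array, and both Nos1 probes and Pde5a lie higher.

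Among the synthases, the signal of Nos3 was lower in the dexamethasone array, and that of Nos1 was higher in the main setting, on dim probes. Nos1, which makes nitric oxide in neurons, had signals of 32.4 (control) and 49.7 (dexamethasone) on probe 1, a difference of 0.54 (like-signal SD 0.15). Probe 2 was spotted 10 times. Its signal in the control array had a low of 13.0, a median of 14.2 and a high of 18.9 over 8 spots, after 2 spots marked as outliers were left out. In the dexamethasone array it had a low of 15.3, a median of 18.4 and a high of 25.6 over 10 spots. The spots of the arrays overlapped, and 7 of 8 spot pairs were higher in the dexamethasone array (spot SD over the pairs 0.27). The probe's difference, taken between the means over all 8 control and 10 dexamethasone spots, was 0.31, beside a scanner error of 0.28. Both Nos1 probes are dim, and the size of the difference rested on background handling, as did any difference at all on probe 2. Normexp correction models and subtracts background and here adds an offset of 50 that itself draws dim probes toward 0. With it the difference was 0.14 on probe 1 and 0.0011 on probe 2, and with no correction 0.16 and 0.0045. Among 2074 probes of like signal 518 differed at least as much as probe 1, and among 1887 probes 54.1% at least as much as probe 2.

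Nos3, the synthase of blood vessel endothelium, was lower on all 10 spot pairs. Its control spots had a low of 234.6, a median of 244.5 and a high of 249.4, and its dexamethasone spots a low of 189.6, a median of 204.3 and a high of 217.6. The spots did not overlap, and the difference was -0.35 (spot SD 0.077), or 1.28-fold lower. That size is common at this signal, since 33.2% of 2280 like probes differed as much. The 8 endothelial markers had a median difference of 0.04 (-0.04 with no background correction), with 4 above and 4 below equality, a range of -0.37 (Pecam1) to 0.33 (Vwf), and a summed signal of 18606 against 20001, and their part in the Nos3 value was not tested. Nos2, the inducible synthase of activated immune cells, had signals of 26.5 (control) and 32.5 (dexamethasone) on its single spot, a difference of 0.22 (like-signal SD 0.19). It was -0.04 with normexp correction, and the 7 microglial markers had a median of 0.08.

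**Figure D2:**
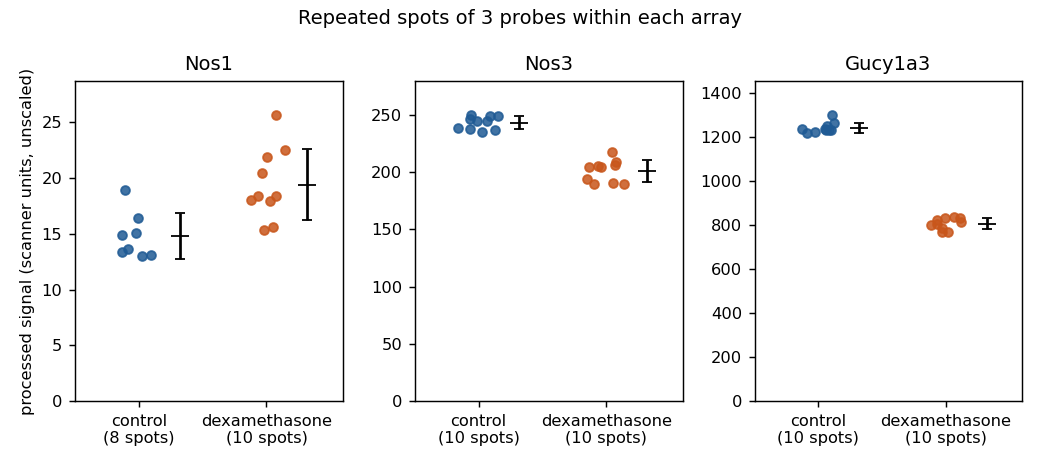
Processed signal (scanner units) of every spot of the 3 member probes that were spotted 10 times, by array, with the mean and SD over spots in black. Nos3 and Gucy1a3 spots do not overlap between the arrays, whereas those of Nos1 do.

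The nitric oxide receptor differed in its alpha subunit more than in its beta subunit. Gucy1a3, now named Gucy1a1, encodes the alpha subunit. Its repeated probe (rn4 chr2:173755356-173755415, minus) had control spots with a low of 1216, a median of 1236 and a high of 1299, and dexamethasone spots with a low of 770.7, a median of 811 and a high of 836.4. The spots stood far apart and all 10 pairs were lower, with differences from -0.79 to -0.64 and a mean of -0.70 (spot SD 0.047). The other Gucy1a3 probe (chr2:173756825-173756884, minus) gave -0.76, from 412.1 to 256.1 (like-signal SD 0.058). So both probes of the alpha subunit were at least 1.62-fold lower, and over the 8 alternative settings they ranged from -0.76 to -0.61. Among probes of like signal 9.53% and 9.16% differed as much.

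Gucy1b3, now Gucy1b1, encodes the beta subunit that carries the haem and is needed by every nitric oxide-sensitive dimer. Its control and dexamethasone signals were 231.2 and 201 on probe 1 and 2433 and 2144 on probe 2 (chr2:173683711-173683770, minus). The differences were -0.28 and -0.26, with like-signal SDs of 0.067 and 0.035. Both are sizes that 42.7% and 34.8% of like probes reached. The genes of both subunits lie side by side on rat chromosome 2, with 0 protein-coding genes between them in the RefSeq table of the GRCr8 assembly and 69.4 kb between their nearest probes on rn4. The other alpha subunit gene, Gucy1a2, was on the opposite side of equality, at 0.22 and 0.34 on its probes.

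Of the cyclic GMP-dependent kinases, Prkg2 was lower in the dexamethasone array, and Prkg1 was too dim for a direction. Prkg2, the membrane-bound type, had signals of 79.2 (control) and 57.5 (dexamethasone), a difference of -0.54 or 1.45-fold lower (like-signal SD 0.12), and was at -0.34 with normexp correction. Of 2164 like probes 23.5% differed as much. Prkg1, the soluble type found in smooth muscle and in many neurons, was well above background on the dexamethasone array alone, with a signal of 10.2 against 6.71. That is a difference of 0.52, beside a like-signal SD of 0.42 and a scanner error of 0.45. It was -0.04 with normexp and 0.0051 with no correction, so its direction depended on background handling. The 7 markers of vessel smooth muscle and pericytes, which express Prkg1, had a median of -0.11, with 2 above and 5 below equality.

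Pde5a, the phosphodiesterase that breaks down cyclic GMP selectively, had signals of 48.3 (control) and 76.1 (dexamethasone), a difference of 0.58 (like-signal SD 0.12). This was the largest positive difference among members, and 21.1% of 2141 like probes differed as much. It was 0.24 with normexp correction and 0.25 with none. It stayed above 0 in all 8 alternative settings, several of which change only the scaling for a single spot.

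Of the DDAH enzymes, Ddah1 was lower in the dexamethasone array and Ddah2 was close to equality. Its bright probe (probe 2, chr2:244070005-244070064, plus) had signals of 88362 (control) and 54382 (dexamethasone), with no saturated spot, a difference of -0.78 or 1.71-fold lower (like-signal SD 0.030). Its dim probe read 210 and 144.3, a difference of -0.62 (like-signal SD 0.074). Both probes were lower. Over settings the bright one ranged from -0.87 to -0.76 and the dim one from -0.62 to -0.48, the latter with normexp and with no correction. Among 368 probes as bright as the first, 2 (0.543%) differed as much, the smallest share of any member. Among 2274 probes of the signal of the dim one, 15.3% did. Ddah2, the form found in vessels and immune cells, read 13946 and 16213, a difference of 0.14 (like-signal SD 0.029) that 56.2% of like probes reached, and was at 0.07 with quantile normalization. In brain, Ddah1 is a gene of neurons and glia. The 6 astrocyte markers had a median of 0.35 and a range of -0.03 (Aldh1l1) to 0.76 (Slc1a2), with 5 above equality. No list of markers of neurons as a whole was read, and the part of either cell type in the Ddah1 values was not tested.

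**Figure D3:**
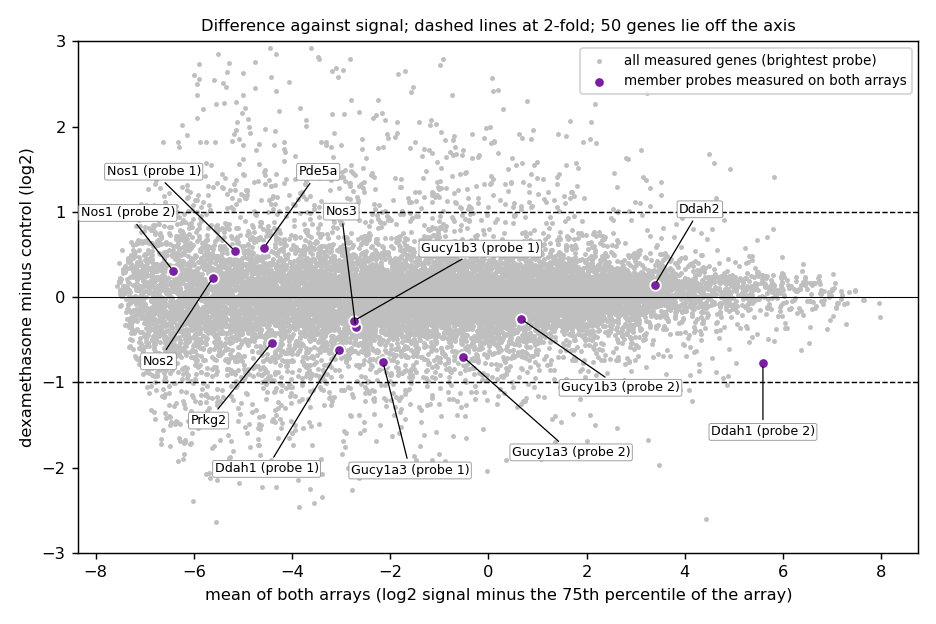
Difference (dexamethasone minus control, log2) against mean scaled log2 signal for the 14256 measured genes in grey, with the 13 member probes measured on both arrays in purple and 2-fold as dashed lines. The members lie inside the dashed lines, and the bright Ddah1 probe sits below nearly all genes of its brightness; 50 genes lie beyond the vertical axis.

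The 4 members with a pair of probes, Nos1, Gucy1a3, Gucy1b3 and Ddah1, had both probes on the same side of equality. Over all genes with several measured probes this held for 1983 of 2669 (74.3%). The probe pairs differed by 0.06 for Gucy1a3, 0.02 for Gucy1b3, 0.16 for Ddah1 and 0.23 for Nos1, beside a median of 0.14 over those genes.

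**Figure D4:**
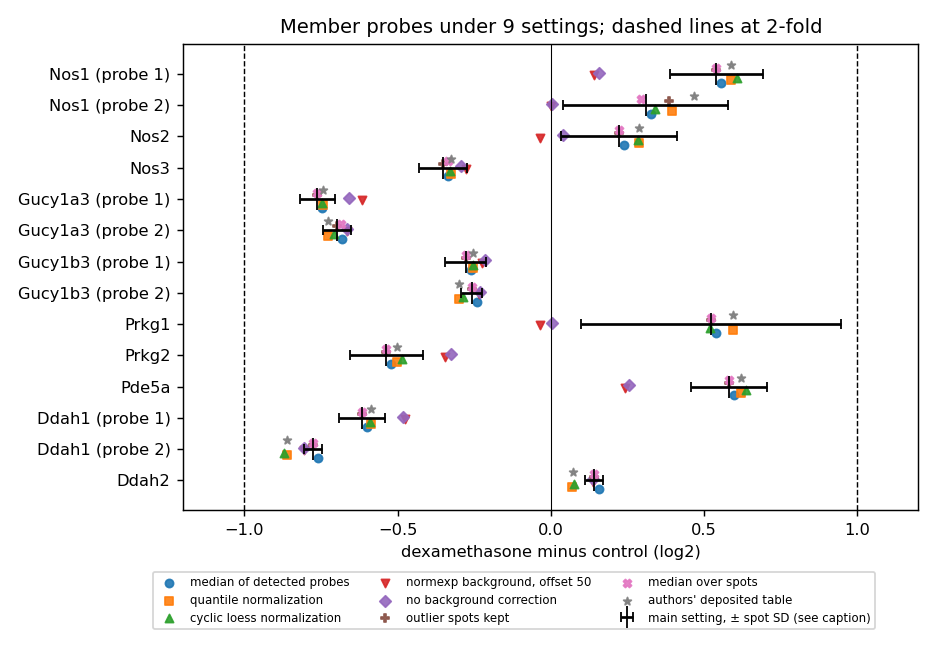
Difference of each member probe (log2) under the main setting (black, with the spot SD, or the like-signal SD for single spots) and under 8 alternative settings (coloured symbols). The dim probes of Nos1, Nos2, Prkg1, Prkg2 and Pde5a move toward 0 with normexp or no background correction, while Ddah1 and Gucy1a3 stay between -0.87 and -0.48.

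The wider pathway was read from 61 other genes, of which 54 were measured on both arrays. Past 2-fold lay 4 of them, with 2 higher and 2 lower after dexamethasone exposure, beside 3.35% and 2.4% of all genes, and the median was 0.01 with 27 above and 27 below equality. Ppp3ca, the calcineurin subunit that dephosphorylates neuronal synthase among many other proteins, was 3.77-fold higher, from 1940 to 7709. Among the partners of the synthases the other 14 of 15 lay within 2-fold. Rasd1, a small G protein first found as induced by dexamethasone and coupled to neuronal synthase, was at -0.27 (4435 against 3873). The adaptor Nos1ap was at 0.27 (spot SD 0.085) and the scaffold Dlg4, which ties the synthase to NMDA receptors, at 0.35. These sizes are common: of probes of like signal 30.8% differed as much as Rasd1, 44.2% as Nos1ap and 33.6% as Dlg4.

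No measured gene of cofactor or substrate supply differed 2-fold. All 6 genes of tetrahydrobiopterin, the synthase cofactor, lay between -0.22 (Pts, which makes an intermediate) and 0.26 (Gch1, the rate-limiting enzyme). Of 6 measured genes of arginine handling, Ass1, which rebuilds arginine from citrulline, was the lowest at -0.91, from 1754 to 980.9, and 4.72% of like probes differed as much. Arg2, the arginase that competes with the synthases for arginine, was the highest at 0.58, and 16.7% of like probes differed as much. Slc7a2, an arginine transporter, and Agxt2, another enzyme that clears methylarginines, did not reach the background mark on any array.

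Removal and targets of cyclic GMP held the other genes past 2-fold. Pde1a, a calcium-dependent phosphodiesterase, was 2.19-fold higher (527.7 to 1217), while its relative Pde1c was at -0.79 on a dim probe (-0.18 with normexp). Of like probes 13.9% differed as much as Pde1c. Of the 8 measured phosphodiesterases in this list, 6 were below equality, with a median of -0.08 against 0.01 over all genes. The member Pde5a, at 0.58, is not among those 8. Ppp1r17, known as G-substrate and a classic target of the cyclic GMP kinase, was 2.60-fold lower, from 365.9 to 148.3. Mrvi1, now Irag1, a kinase I substrate at calcium stores, was 2.32-fold lower on its bright probe, from 3478 to 1578, and at -0.998 on the other. Rgs2, a regulator of G protein signalling that the cyclic GMP kinase activates, was the highest of the reported targets at 0.37, from 2727 to 3713. Of like probes 19.3% differed as much as Rgs2. All 4 genes past 2-fold stayed past it in the 8 alternative settings, which are not 8 separate checks. Of probes of like signal 0.871% differed as much as Ppp3ca, 4.44% as Pde1a, 3.57% as Ppp1r17 and 1.92% as Mrvi1. Npr2, a membrane cyclase and natriuretic peptide receptor, was lowest among the other cyclases at -0.35 (spot SD 0.064). The exporter Abcc5 was at -0.44 (spot SD 0.041) on its brighter probe and at -0.20 on the other, and Glrx, which reverses thiol modification, at 0.14 (spot SD 0.025). Of like probes 23.6% differed as much as Npr2, 12.4% as the brighter Abcc5 probe and 56.4% as Glrx.

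**Figure D5:**
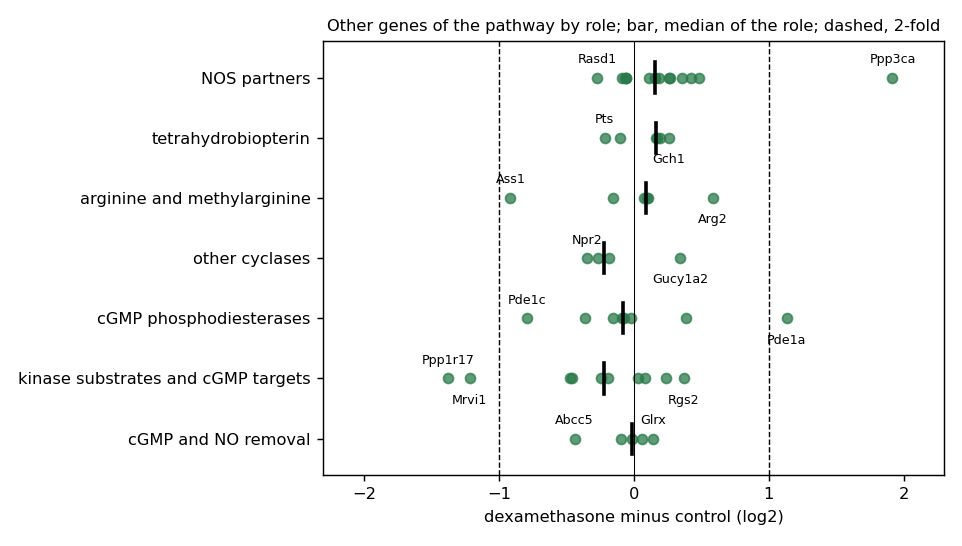
Difference (log2) of the 54 measured genes of the wider pathway by role, with the median of each role as a black bar and 2-fold as dashed lines. The 4 genes past 2-fold are Ppp3ca and Pde1a to the right and Mrvi1 and Ppp1r17 to the left.

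Lists of markers of neighbouring brain regions also differed between these arrays. All 9 measured markers of cortex, hippocampus and striatum were higher in the dexamethasone array (median 4.32, range 0.47 to 6.20, summed signal 4813 against 46406), and Tbr1 was well above background there alone. All 8 thalamic markers were lower (median -0.98, range -1.19 to -0.47, summed signal 92286 against 49110). Sst, Npy and Lhx6, taken here as markers of cortical and striatal interneurons that contain neuronal synthase, were higher by 1.41 to 1.85. Tissue RNA does not show which cells these transcripts came from, so the values do not count such interneurons. Of the 6 measured PVN markers 2 were above and 4 below equality, with a median of -0.28: Avp -1.91, Oxt -1.38, Sim1 -0.31, Trh -0.24, Pou3f2 0.24 and Crh 1.39 (summed signal 6074 against 3121). In tissue RNA fewer cells of a type and less RNA per cell cannot be told apart, and the part of these markers in the values of Nos1, Gucy1a3, Prkg2, Ddah1, Ppp3ca and the other genes was not tested.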

How the data were processed

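For 2 one-colour (Cy3) arrays, the deposited scanner files give linear intensity for each spot. They were written by Feature Extraction 10.7.1.1, with probe positions on rn4, per the file headers, whereas version 9.5.1.1 stands in the submitters' processing notes. The authors' deposited value table gives intensity after further processing, with a median of 149.9 in both columns. Its differences correlated with the scanner differences at 0.996 across probes, which settles its direction (algorithm: not given in the sources used here). On member probes with a single spot they lay close to those after quantile normalization (Pde5a 0.619 in both). Over all genes both gave 494 higher and 338 lower by 2-fold.

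Spots with an outlier mark were left out (267 control, 249 dexamethasone), no spot was saturated, log2 processed signals were averaged per probe, and each array's 75th percentile over 30356 probes was subtracted. A probe counted as well above background where at least 50% of its spots were, and a gene took its brightest probe so marked on both arrays. Names were updated through RefSeq (GRCr8): 18394 probes by accession, 2464 by symbol and 537 by older symbol; all 14 member probes matched, and 8972 probes without a match were left out of gene counts. R 4.3.3 with limma 3.58.1 and Python 3.11.15 were used. On simulated data with 200 of 14256 genes changed, 100% were recovered within 0.3 log2. The implanted changes were larger than any member difference, and the added noise was smaller than the spot SD of dim probes. The simulation thus checks the computing steps, and cannot show how well small or dim differences are measured.

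The members, lists and rules were chosen with earlier results of these data known. Named were all members; in each pathway role the highest and lowest measured gene; and every listed gene past 2-fold. 1 gene of the pathway list is not reported here and is left out of its counts. Slc7a2, Agxt2, Nos1ap and Dlg4 were named after their values were seen. Alternatives were 3 other scalings, 2 background settings, kept outlier spots, spot medians, the deposited table, no filter on dim probes, another probe rule and a 1.5-fold rule.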

Additional observations from a re-analysis of the deposited data

How the results depend on the processing

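No member passed 2-fold under any of 8 alternative settings or without the filter on dim probes, and with a 1.5-fold rule 2 were lower. Of 112 probe differences in those settings 110 kept their sign (the exceptions were Nos2 and Prkg1 with normexp) and 24 moved by more than the spot SD. The 8 settings are not 8 separate checks. For the 11 member probes with a single spot, kept outlier spots, spot medians and scaling to the median of detected probes changed only the scaling. The deposited table lay close to quantile normalization on those probes. The count of kept signs is therefore weak support. The pathway list had 5 genes at least 2-fold higher with no filter on dim probes, and 4 lower by 1.5-fold. Over all genes, normexp gave 284 higher and 132 lower against 478 and 342, no background correction 280 and 135, and no filter 876 and 743. The members' split was 4 above and 5 below equality in the other scalings and with probes averaged, 3 and 6 with normexp, and 5 and 5 (median -0.06) with no filter on dim probes. The pathway median fell to between -0.03 and -0.02 with quantile, loess, normexp, no correction and the deposited table, and was 0.06 with no filter. The median over all genes moved as well, to -0.017 with normexp, -0.020 with no correction and 0.032 with no filter. It was between -0.0045 and -0.0030 with quantile, loess and the deposited table. No paired analysis was possible because each group has 1 array. Signal over background limits Nos1, Nos2, Prkg1, Prkg2 and Pde5a, whose values were nearer 0 with normexp (offset 50) and with no correction; the offset, or the background left in, draws dim log differences toward 0 by construction.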

Other observations

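Of 16 pathway genes with several measured probes, 13 had all of them on one side of equality, and Abcc4, Hsp90aa1 and Slc7a1 did not. Kcnma1 and Dynll1, which the rule does not name, were picked after their values were seen. Kcnma1, the large-conductance potassium channel that the cyclic GMP kinase opens, was lower on all 3 of its probes, from -0.79 to -0.34, a wider gap than the median of 0.14 over all genes with several probes. At its brightest probe (-0.47) 17.3% of probes of like signal differed as much. Dynll1, the dynein light chain known as a protein inhibitor of neuronal synthase, was higher on both probes (0.48 and 0.53), from 47000 to 69228 on the former, and 3.23% of probes of like signal differed as much. Cnga3, picked in the same way, a cyclic GMP-gated channel subunit, was well above background on the dexamethasone array alone (9.88 against 3.92).

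RefSeq promoter windows (GRCr8, reaching just past the gene's start) were at hand for 7 members. None of the 7 held AGAACA, the core of the glucocorticoid receptor motif, on either strand, and 20.7% of all 33469 windows did. This says only that these letters are not in those windows.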
